A study of Mus musculus with 2 samples.

Results

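The Id genes Id1, Id2, Id3 and Id4 were taken by symbol, and they are 4 of the 32285 genes listed in a single-cell RNA-Seq data set of old mouse hindlimb muscle. Id proteins are small helix-loop-helix proteins that lack a DNA-binding region. They pair with E proteins (Tcf3, Tcf4 and Tcf12) and so keep these from forming DNA-binding dimers with tissue-specific basic helix-loop-helix (bHLH) factors such as MyoD in muscle or Tal1 in blood and endothelium. Id1, Id2 and Id3 are known as direct targets of bone morphogenetic protein (BMP) signaling through Smad1 and Smad5, Id1 and Id3 are known for roles in blood vessel growth, and Id2 is known for its part in natural killer, innate lymphoid and dendritic cell development.

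Both groups were female C57Bl/6J mice aged 24 months that received 3 rounds of intramuscular injections, given every other day. Quadriceps and gastrocnemius muscles were digested and live cells were sorted. The ATRA+agonist group received all-trans retinoic acid (ATRA, the natural ligand of retinoic acid receptors) with CD3254, an agonist of retinoid X receptor alpha, and BMS961, an agonist of retinoic acid receptor gamma. The DMSO vehicle group received the solvent. Tissue of 2 mice was pooled into 1 library per group, so there is no replicate and no test of the treatment. Every interval below is a 95% interval that covers counting error only, and a difference between the libraries cannot be told apart from a difference between the pooled animals or preparations.

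Levels are unique molecular identifiers (UMIs) summed over the cells of a class, scaled to a class total of 1000000 UMIs (CPM). Of 10444 and 17394 barcodes, 6907 and 6953 cells were kept in the ATRA+agonist and DMSO vehicle libraries, with a median of 4695 and 4848 UMIs per cell. Kept cells of the 2 libraries shared 10 barcodes. Cells were placed in classes rebuilt from marker genes, without using the Id genes, and each carries the suffix "-like". At least 6 markers were 2-fold or more enriched in every named class. Capillary endothelial-like cells had 9 of 9 (Car4, Rgcc and Gpihbp1 among them), MuSC-like cells (muscle stem cells) 9 of 9 (Pax7, Myf5, Calcr) and pericyte-like cells 9 of 9 (Rgs5, Kcnj8, Abcc9). In all, 17 classes had at least 30 cells in each library and were compared. Free RNA, read from barcodes in which hemoglobin gave at least 50% of UMIs, carried more Id transcript in the vehicle library: Id3 was at 158 CPM (129 to 190) of the non-hemoglobin UMIs with ATRA+agonist and at 324 CPM (303 to 345) with DMSO vehicle, and Id1 at 92.6 and 151 CPM.

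The 4 members are separate genes. In GRCm38, Id1 lies on chromosome 2 (152736251 to 152737410, plus strand), Id2 on chromosome 12 (25093799 to 25097140, minus strand), Id3 on chromosome 4 (136143497 to 136145755, plus strand) and Id4 on chromosome 13 (48261228 to 48266026, plus strand), by GENCODE M21. Id4 overlaps 2 genes annotated on the other strand, A330033J07Rik and Gm49291, and the strand setting of the counting is not given in the sources used here. A window of likeness was searched for within the coding sequence only. The window of 60 coding bases in which Id1 best matched the other members is shown for all 4, to let the family resemblance be seen, with capitals at the 42 positions where all members carry the same base:
Id1 (coding bases 247 to 306): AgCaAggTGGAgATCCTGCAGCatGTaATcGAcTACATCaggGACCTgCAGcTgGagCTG
Id2 (coding bases 178 to 237): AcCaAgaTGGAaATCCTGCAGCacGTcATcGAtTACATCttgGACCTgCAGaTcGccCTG
Id3 (coding bases 193 to 252): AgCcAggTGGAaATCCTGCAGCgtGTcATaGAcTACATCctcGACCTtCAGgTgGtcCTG
Id4 (coding bases 265 to 324): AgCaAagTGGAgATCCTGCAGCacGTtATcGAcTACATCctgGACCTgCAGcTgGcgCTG
Within this window Id1 and Id4 matched at 54 of 60 bases, and the other pairs at 47 to 50. Between the members' transcripts with the longest coding sequence, the longest stretch shared without a mismatch was 17 bases, between Id1 and Id4 and coding in both. Reads that cover more than this stretch therefore differ between members.

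Promoter windows of 300 bases (250 before to 50 after the RefSeq start, GRCm38.p6) were given for 3 members, Id2, Id3 and Id4. They were searched on both strands for the retinoid half-sites AGGTCA and GGTTCA, for GGCGCC and GTCTAGAC, which BMP Smads and Smad complexes can bind, for AGAC, the Smad box contained in GTCTAGAC, and for the E-boxes CACGTG and CAGCTG that bHLH dimers bind. The Id2 and Id3 windows are printed because these genes differed between the libraries in several classes, with matches in capitals and AGAC left in lower case because 88.0% of all 32851 promoter windows hold it:
Id2 (chr12:25096043-25096342, minus strand): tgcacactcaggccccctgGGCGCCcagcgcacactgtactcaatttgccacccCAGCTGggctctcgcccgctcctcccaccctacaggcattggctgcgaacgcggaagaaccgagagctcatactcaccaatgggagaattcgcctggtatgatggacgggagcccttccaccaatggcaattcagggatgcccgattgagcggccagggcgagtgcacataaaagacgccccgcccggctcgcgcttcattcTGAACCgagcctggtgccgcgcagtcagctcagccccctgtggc
Id3 (chr4:136143572-136143871, plus strand): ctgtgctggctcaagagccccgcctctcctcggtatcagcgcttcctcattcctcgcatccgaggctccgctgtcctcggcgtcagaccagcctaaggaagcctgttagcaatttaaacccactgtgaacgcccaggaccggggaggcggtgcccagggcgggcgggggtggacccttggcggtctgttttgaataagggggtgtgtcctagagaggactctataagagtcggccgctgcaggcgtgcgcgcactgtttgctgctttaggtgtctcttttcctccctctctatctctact
Counting the annotated start as 0, the Id2 window held GGCGCC at -231, CAGCTG at -196, AGAC at -23 and GGTTCA on the other strand (TGAACC) at 6. The Id3 window held none of these letters except AGAC, at 3 positions, and the Id4 window held GGCGCC at -148. No window held AGGTCA, GTCTAGAC or CACGTG. Of all promoter windows, 16.3% held AGGTCA, 10.4% GGTTCA, 11.9% GGCGCC, 0.213% GTCTAGAC, 7.15% CACGTG and 16.3% CAGCTG. GENCODE M21 places the Id2 and Id3 genes' outer ends beyond these starts, so the windows lie inside the longest annotated genes.

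Each member had its own distribution over the muscle's cell classes. Id1 was an endothelial transcript: in order of level, arterial endothelial-like cells (830 CPM with ATRA+agonist and 811 with DMSO vehicle) and capillary endothelial-like cells (695 and 917 CPM) overlapped in their spread over the 2 libraries, and both stood above venous endothelial-like cells (239 and 252 CPM). Endothelial-like cells that matched no vessel type lay between capillary and venous cells, at 372 and 446 CPM. MuSC-like cells came next among the named classes, at 170 and 104 CPM. Their spread overlapped that of perineurial-like cells at 84.4 and 115 CPM. Lymphatic endothelial-like cells, with 22 and 12 cells too few for a ratio, had 83.6 (41.7 to 150) and 156 (67.4 to 308) CPM. By the mean of both libraries, Id1 was lowest among the compared classes in T cell-like cells, at 2.47 and 3.97 CPM on 5 and 2 UMIs. B cell-like cells had 1.68 and 19.7 CPM on 7 and 6 UMIs.

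Id3 was both endothelial and mesenchymal. Its 3 highest classes were capillary endothelial-like (871 and 1451 CPM), arterial endothelial-like (875 and 1070 CPM) and MuSC-like cells (1097 and 760 CPM), whose spreads overlapped pairwise in that order. Tenocyte-like cells (610 and 625 CPM) came next, and venous endothelial-like cells had 440 and 486 CPM. The 3 groups of fibroadipogenic progenitor (FAP)-like cells, the stromal cells of muscle, spread widely. They had 520 and 605 CPM in the FAP-like cells led by Gdf10 that matched no finer marker set, 349 and 438 CPM in the Cxcl14 FAP-like group, and 198 and 225 CPM in the Pi16 FAP-like group. Id3 was at 54.6 and 49.3 CPM in monocyte or macrophage-like cells and at 16.8 and 3.97 CPM in T cell-like cells, whose values rest on 34 and 2 UMIs.

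Id2 was highest in some immune classes but not in all of them. B cell-like cells had 42.0 and 0 CPM, and the 7 and 72 neutrophil-like cells had 13.5 and 44.8 CPM. Dendritic-like cells stood first among the compared classes (565 and 327 CPM), followed by T cell-like (205 and 266 CPM) and monocyte or macrophage-like cells (169 and 226 CPM), and the spreads of these neighbours overlapped. Among classes with too few cells for a ratio, Id2 was high in mast cell-like cells (12 and 3 cells, 985 and 1886 CPM) and in natural killer (NK) cell-like cells (15 and 4 cells, 576 and 393 CPM). Id1 was not detected in either of these 2 classes. In the 15 NK cell-like cells of the ATRA+agonist library this still allows up to 21.9 CPM, the level of 3 counts. That level was 78.5 CPM in the 4 NK cell-like cells with vehicle. In the mast cell-like cells it was 35.2 CPM with ATRA+agonist and 257 CPM with vehicle. Id2 was also present at 126 and 129 CPM in tenocyte-like and at 75.1 and 72.3 CPM in MuSC-like cells. By the mean of both libraries it was lowest among the compared classes in pericyte-like cells, with 8 UMIs in each library.

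Id4 was sparse. It gave 444 and 671 UMIs over all kept cells of the ATRA+agonist and DMSO vehicle libraries. Its highest levels were in myelinating Schwann-like cells, the insulating cells of nerve (42.8 and 43.8 CPM), in pericyte-like cells of the vehicle library (69.3 CPM) and in the Gdf10-led FAP-like cells (27.1 and 33.7 CPM). It was not seen in 643 B cell-like cells of the ATRA+agonist library, which at 3 counts allows a share of up to 0.467% of cells with a UMI, nor in 427 monocyte or macrophage-like cells of the vehicle library.

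**Figure D1:**
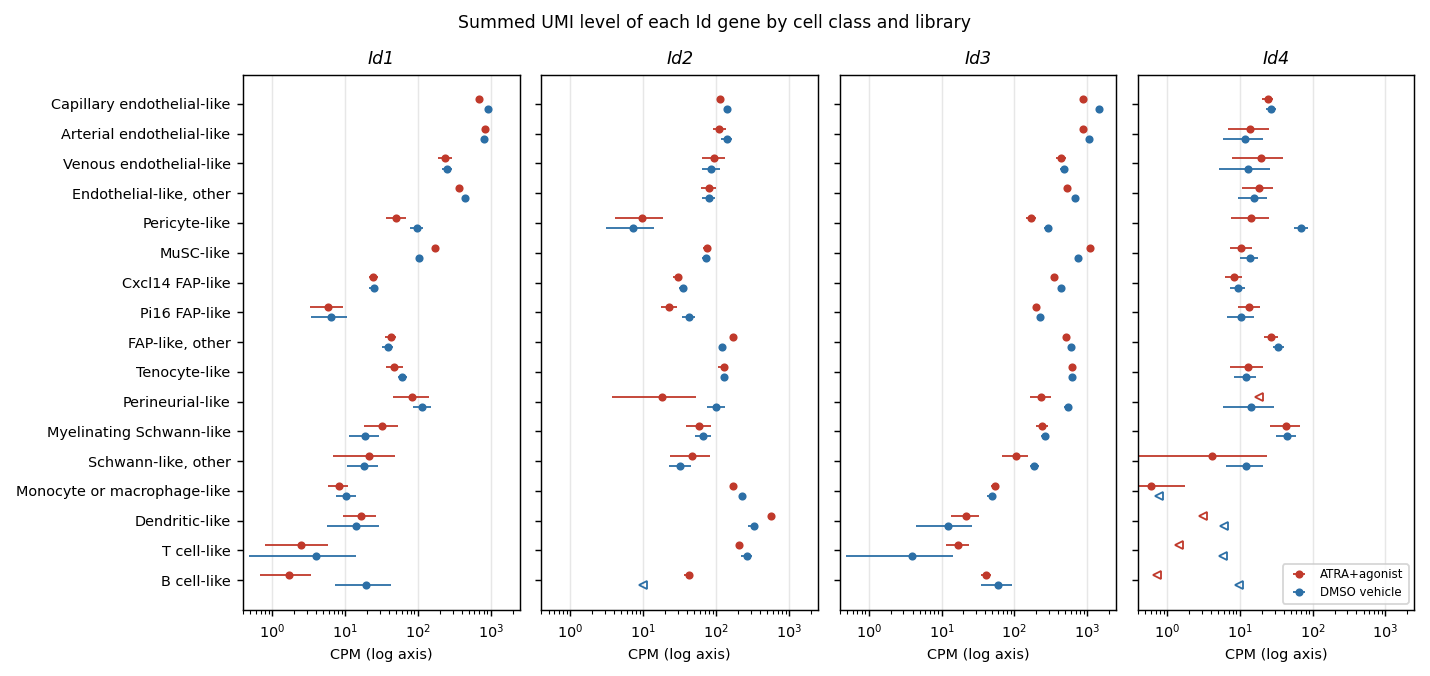
Summed level of each Id gene (CPM, log axis) in the 17 compared cell classes, red for ATRA+agonist and blue for DMSO vehicle, with 95% counting intervals and open triangles for the level of 3 counts where no UMI was seen. In capillary and arterial endothelial-like cells all 4 values of Id1 and of Id3 lay at 695 CPM or above, Id3 was at 1097 and 760 CPM in MuSC-like cells, and Id2 was highest in dendritic-like cells.

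Genes whose pattern was most like that of each member were named by Pearson's r of log2(CPM + 10) over 32 points, the 16 classes with at least 50 cells in each library. The points share 2 libraries and a depth per class, so r is a description. For Id1 these were Palmd (r = 0.94), Cav1 (0.94, caveolin-1), Tspan7 (0.92), Acacb (0.92) and Myo10 (0.91). For Id3 they were Wwc2 (0.94), Wwtr1 (0.93, the coactivator TAZ), Nfib (0.92), Adamts1 (0.91) and Cdkn1c (0.91). For Id4, Zfp532 came first at 0.90, then Peg13 (0.86), Ttc23 (0.86), Arhgef11 (0.85) and 4930402H24Rik (0.85). Likeness was weaker for Id2, where Hspa8 (0.71), Tpm3, Galc, Actg1 and Arl4c (0.68) led. Among the members, Id1 and Id3 had the most alike patterns (r = 0.77), and Id2 followed neither (0.02 with Id1 and -0.20 with Id3).

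The comparison of ATRA+agonist with DMSO vehicle within a class asks whether the retinoid treatment was accompanied by another Id level in the same kind of cell. A gene is called higher or lower here when its log2 ratio of ATRA+agonist over vehicle is at least 0.5 in size, and the share of all genes with at least 50 UMIs in the class that pass the same size is given as background. Of 49 values of a member with at least 50 UMIs in a class, 5 were higher and 9 were lower. Over all genes, the share called higher ran from 4.63% (Cxcl14 FAP-like) to 25.2% (B cell-like). The share called lower ran from 4.83% (capillary endothelial-like) to 46.0% (perineurial-like). Id1 and Id3 were higher in MuSC-like cells and lower in pericyte-like cells, and Id3 was lower in capillary endothelial-like cells. The difference in direction between classes was not tested.

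**Figure D2:**
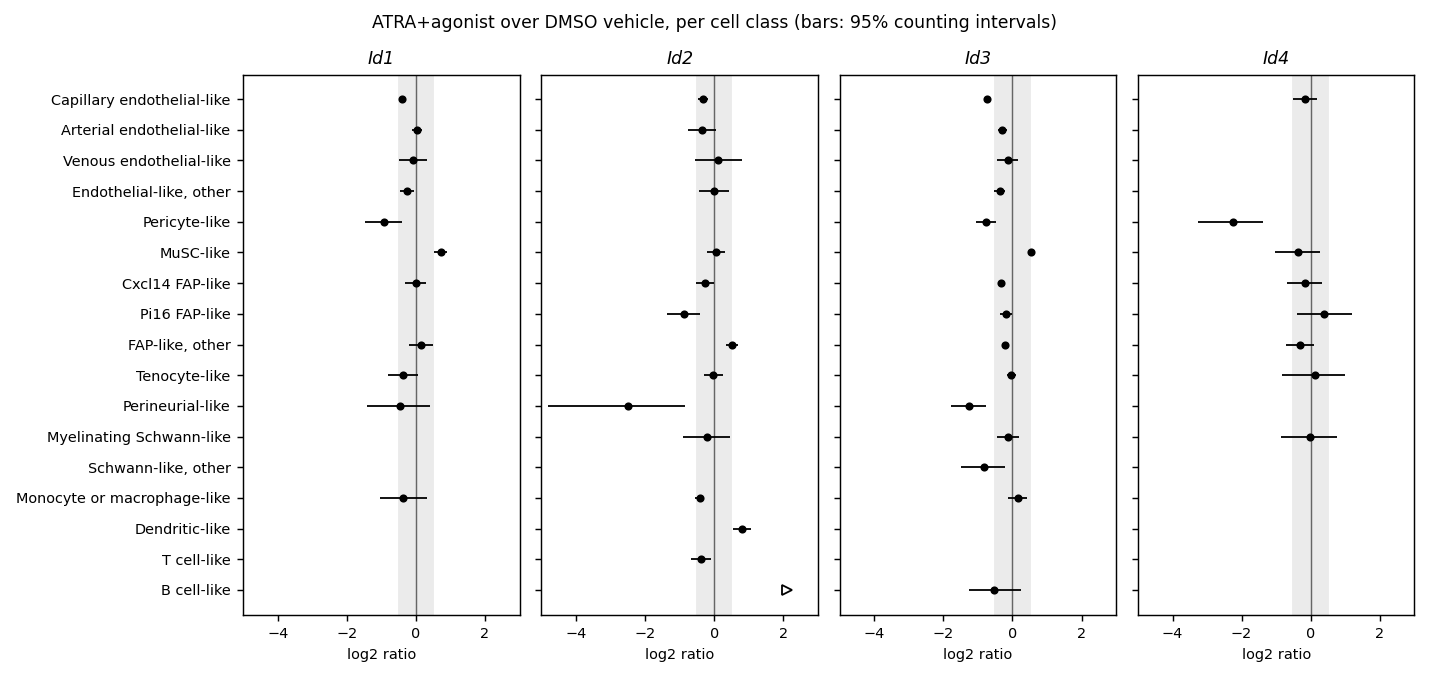
Log2 ratio of ATRA+agonist over DMSO vehicle for each Id gene with at least 50 UMIs in a class, with 95% counting intervals. The grey band marks ratios under 0.5 in size, and the open triangle is the ratio against 3 counts in a vehicle library without a UMI. Id1 and Id3 sit to the right of 0 in MuSC-like cells (0.72 and 0.53) and to the left in pericyte-like cells (-0.93 and -0.77).

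In MuSC-like cells, 2 of 4 members were higher with ATRA+agonist and none was lower, against 9.25% of genes called higher. Id1 rested on 569 UMIs in 415 cells with ATRA+agonist and 411 UMIs in 531 cells with vehicle, a log2 ratio of 0.72 (0.53 to 0.90). Cells with an Id1 UMI made up 50.4% (45.4 to 55.3) with ATRA+agonist and 37.3% (33.2 to 41.6) with vehicle. When every cell was thinned to 1000 UMIs these shares were 15.8% and 9.42%. In B cell-like cells, used as the background for Id1, the unthinned shares were 0.622% and 3.51%. The median cell there had 5370 and 4501 UMIs, against 7464 and 6463 in MuSC-like cells. In free RNA, Id1 was at 92.6 CPM with ATRA+agonist and 151 CPM with vehicle. The MuSC-like levels were 170 and 104 CPM, and the part of free RNA in them was not tested.

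Id3 was detected in 83.9% of MuSC-like cells with ATRA+agonist and in 82.7% with vehicle. After thinning to 1000 UMIs these shares were 51.6% (46.6 to 56.5) and 45.4% (41.1 to 49.7). The median cell had 715 CPM against 514 CPM, and the log2 ratio was 0.53 (0.46 to 0.60). This call lies close to the size used and was lost with median-of-ratios scaling (0.49), as a mean over cells of per-cell CPM (0.48) and after thinning to 2000 UMIs (0.47). Id2 (0.06, -0.20 to 0.30) and Id4 (-0.38, -1.03 to 0.26, on 35 and 54 UMIs) were not called. After thinning, Id1 and Id3 were seen in the same cell in 11.2% of 411 MuSC-like cells with ATRA+agonist and in 4.33% of 531 with vehicle, where the product of the single shares was 8.16% and 4.27%.

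Several of the factors that Id proteins counteract are known from this lineage. Myog, which drives terminal differentiation of myoblasts, was at 149 CPM with ATRA+agonist and 8.81 CPM with vehicle. It came from few cells: 399 of 415 MuSC-like cells with ATRA+agonist and 529 of 531 with vehicle held no Myog UMI, and in those cells alone the ratios of Id1 (0.72) and Id3 (0.60) were as large as in all MuSC-like cells. Myod1, the determination factor, was level at 76.0 and 75.6 CPM, as was Myf5 at 280 and 293 CPM. Msc (musculin, a repressor bHLH factor) was lower, with a log2 ratio of -0.69 (-0.95 to -0.45), and Bhlhe41 was higher (0.88, 0.42 to 1.35).

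The E proteins that Id proteins bind did not pass the size used here: Tcf4 stood at 799 and 777 CPM, Tcf12 at 335 and 320 CPM and Tcf3 at 32.3 and 25.9 CPM. Among the BMP genes, the ligand Bmp4 was higher in MuSC-like cells, at 181 against 110 CPM (0.72, 0.54 to 0.90). None of the 7 receptors measured, of 8 listed, was called, and their median log2 ratio was -0.24 beside 0.04 for all genes. The feedback inhibitors Smad6 (0.28, -0.37 to 0.93) and Smad7 (-0.13, -0.42 to 0.16), which BMP signaling also induces, were not called. Of the 5 feedback genes and other targets only Atoh8 passed the size, at 0.54 on 49 and 40 UMIs, with an interval that includes 0 (-0.09 to 1.18). The 3 Notch targets measured were split: Hes1 (0.56) and Heyl (0.51) were higher, and Hey1 was lower on 34 and 62 UMIs (-0.62, -1.27 to 0.01).

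Immediate early genes, which muscle cells switch on during tissue digestion as well as in life, moved with the Id genes in MuSC-like cells. Of 11 listed, 6 were higher with ATRA+agonist and none lower, with a median log2 ratio of 0.54, Fos at 0.97 and Btg2 at 0.81. Their summed level was 17831 CPM with ATRA+agonist and 11897 CPM with vehicle. The MuSC-like cells were therefore split into 3 strata of equal size over both libraries by their share of immediate early UMIs.

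Id3 climbed with these strata in both libraries: from 546 to 1056 and 1458 CPM with ATRA+agonist, and from 557 to 824 and 1103 CPM with vehicle. In the lowest stratum (113 and 203 cells) the libraries gave the same Id3 level within counting error, a log2 ratio of -0.03 (-0.19 to 0.14). In the middle and the highest stratum Id3 was higher with ATRA+agonist by 0.36 (0.24 to 0.48) and 0.40 (0.29 to 0.52). Id1 likewise had log2 ratios of 0.20 (-0.28 to 0.66), 0.49 (0.14 to 0.84) and 0.30 (0.03 to 0.57). The mean over strata was 0.33 for Id1 and 0.24 for Id3, both below 0.5, and the part of the digestion response in the result was not tested. Splits of the thinned cells by a UMI of a myogenic gene did not share a pattern. Cells with a Pax7 UMI had Id3 at 1052 (896 to 1226) and 946 CPM (804 to 1106) with ATRA+agonist and vehicle, and cells without had 1082 (958 to 1217) and 646 CPM (566 to 734). Cells with a Myf5 UMI had 1424 (1181 to 1701) and 904 CPM (739 to 1096), and the 27 and 30 cells with a Myod1 UMI had 778 (481 to 1189) and 933 CPM (620 to 1349). Fiber markers summed to 132 CPM with ATRA+agonist and 56.9 CPM with vehicle in MuSC-like cells, and among the cells without a fiber marker UMI (307 and 432) the ratios were 0.66 for Id1 and 0.53 for Id3.

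**Figure D3:**
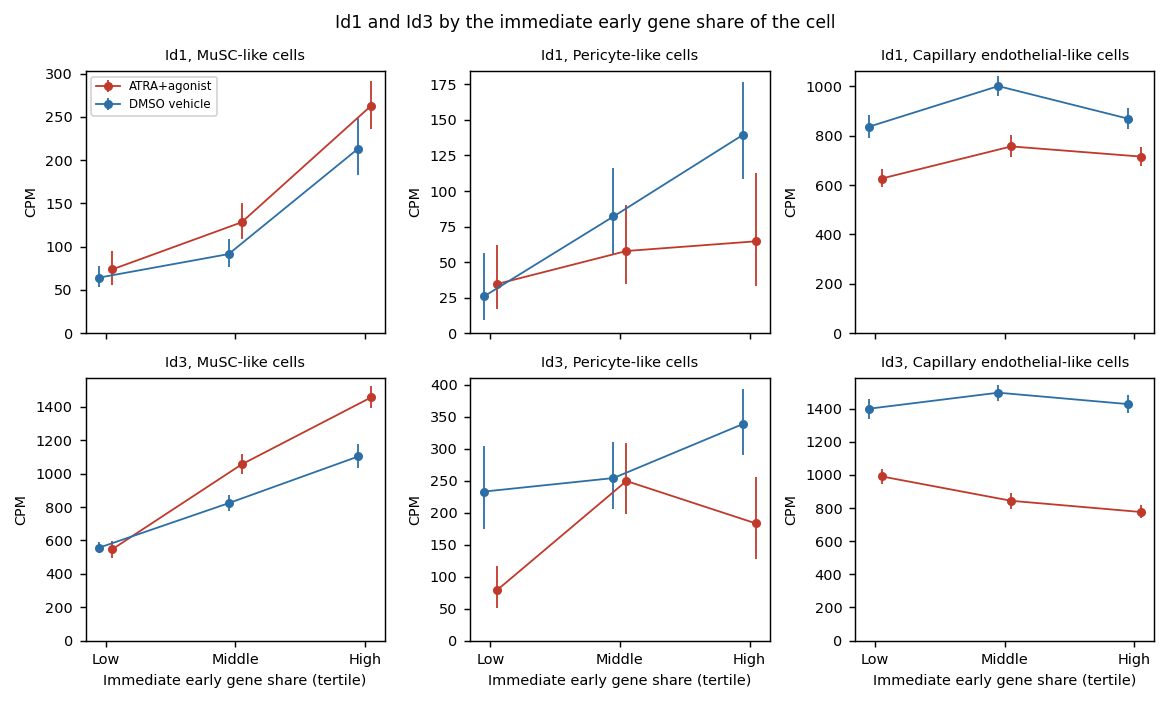
Level of Id1 (upper row) and Id3 (lower row) in CPM, with 95% counting intervals, in 3 strata of MuSC-like, pericyte-like and capillary endothelial-like cells ordered by their share of immediate early gene UMIs. In MuSC-like cells both genes climb with the share in both libraries and Id3 starts at 546 and 557 CPM, whereas in capillary endothelial-like cells the ATRA+agonist library lies below vehicle in all 3 strata.

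In capillary endothelial-like cells, the class with most Id UMIs, all 4 members had lower values with ATRA+agonist and 1 of 4 was called lower, against 4.83% of genes. Id3 had 4660 UMIs in 1654 cells with ATRA+agonist and 8280 UMIs in 1571 cells with vehicle, a log2 ratio of -0.74 (-0.79 to -0.68). Cells with an Id3 UMI made up 75.3% with ATRA+agonist and 90.6% with vehicle, and thinning to 1000 UMIs left shares of 50.03% and 68.8%. The median cell of the class had 3129 and 3457 UMIs. In T cell-like cells, which have little Id3, the unthinned shares were 8.97% and 2.60% at a median of 6097 and 5904 UMIs. Id1 (-0.40, -0.46 to -0.34), Id2 (-0.32, -0.48 to -0.17) and Id4 (-0.16, -0.51 to 0.19) stayed within the size used for a call. The thinned cells without a UMI of any member were 30.2% with ATRA+agonist and 16.1% with vehicle.

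The lower Id3 level was found throughout the capillary class. In the 4 clusters that make it up, the Id3 log2 ratio was between -0.79 and -0.68, and that of Id1 between -0.53 and -0.33. The summed immediate early level was close in both libraries (16028 and 15498 CPM), and Id3 was lower with ATRA+agonist in each stratum of the cells by that measure, with log2 ratios of -0.50, -0.83 and -0.88. Id3 in free RNA was also lower in the ATRA+agonist library, as given above, and its part in the cells' values was not tested.

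The size of the Id1 difference depended on how interferon state was treated. The clustering over all cells held an endothelial cluster led by interferon-induced genes (Cd274, Gbp4 and Rsad2), and 59.5% of capillary endothelial-like cells of the vehicle library belonged to it but 13.7% with ATRA+agonist. Id1 was lower in the interferon-led cells than in the others of the same library: 742 (714 to 771) against 1210 CPM (1164 to 1258) with vehicle, and 522 (475 to 572) against 729 CPM (704 to 754) with ATRA+agonist. Id3 was likewise at 1326 against 1659 CPM with vehicle and 609 against 923 CPM with ATRA+agonist. Within each state the differences were larger than in the whole class. Id1 had a log2 ratio of -0.73 (-0.81 to -0.66) in the other cells and -0.51 (-0.65 to -0.36) in the interferon-led cells, both past the size for a call that the pooled -0.40 misses. Id3 had -0.85 (-0.91 to -0.78) and -1.12 (-1.25 to -0.99).

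**Figure D4:**
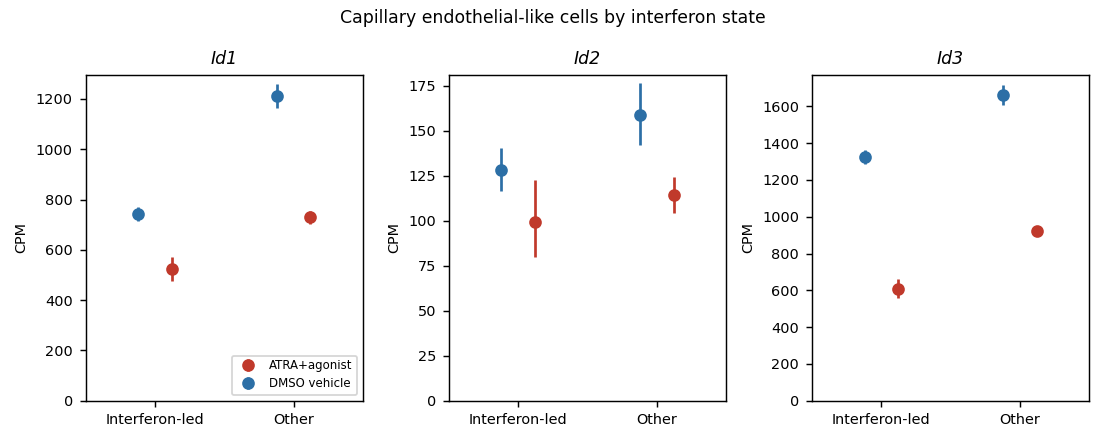
Level (CPM, 95% counting intervals) of Id1, Id2 and Id3 in capillary endothelial-like cells, split into interferon-led and other cells, red for ATRA+agonist and blue for DMSO vehicle. In both states Id1 and Id3 are lower with ATRA+agonist, and in both libraries they are lower in interferon-led cells, with Id1 from 522 to 1210 CPM.

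Other targets of BMP-Smad signaling were examined in the same cells. Smad6, an inhibitory Smad prominent in endothelium, was at 20.6 CPM with ATRA+agonist and 41.2 CPM with vehicle (-1.002, -1.34 to -0.67). Smad7 (-0.42, -0.57 to -0.27) and Atoh8 (-0.39, -0.76 to -0.02) were lower by less than the size for a call, and Bambi was not lower (0.17, -0.06 to 0.39), so that the 4 measured had a median of -0.40 beside 0.09 for all genes. The ligand Bmp6, which endothelial cells make, stood at 773 and 867 CPM (-0.16, -0.22 to -0.10). Of 7 receptors none was called, and the endothelial receptor Acvrl1 (0.19, 0.04 to 0.34) and coreceptor Eng (0.14, 0.08 to 0.20) had slightly higher values. The E protein Tcf4 was at 2244 and 1952 CPM (0.20, 0.16 to 0.24). Tcf15, a bHLH factor of capillary endothelium, had 885 and 687 CPM (0.36), and Lyl1, a partner of E proteins, was called higher on 77 and 36 UMIs (1.19, 0.60 to 1.80).

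The larger vessels were compared in the same way, and the difference between vessel types was not tested. In arterial endothelial-like cells (171 and 191 cells) Id1 was level, with a log2 ratio of 0.03 (-0.12 to 0.19) on 656 and 758 UMIs, an interval that does not reach the capillary value. Id2 was at -0.34 (-0.75 to 0.06), close to the capillary value. Id3 was at -0.29 (-0.43 to -0.15), but at -0.51 with a minimum of 500 genes and at -0.50 without doublet removal. Only 10 and 14 of the arterial endothelial-like cells were interferon-led, and without them Id1 was at 0.06 and Id3 at -0.25. Over the whole class, 8 of 10 measured interferon-response genes were lower, against 9.97% of all genes. Their median log2 ratio was -1.82 beside 0.02 for all genes, and their part in the Id values was not tested. The size of this class depended on the processing. It held up to 514 and 721 cells under other filters, and Id1 was between -0.17 and -0.14 in 4 settings of the cell filters. Bmp4 (0.96, 0.20 to 1.73, on 41 and 25 UMIs), Bmp6 (0.67, 0.22 to 1.13) and Hes1 (0.58, 0.25 to 0.90) were higher in arterial endothelial-like cells.

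In venous endothelial-like cells (71 and 106 cells) Id1 gave -0.07 (-0.48 to 0.32), Id2 0.12 (-0.56 to 0.79) and Id3 -0.14 (-0.43 to 0.15), and a difference of the capillary size in Id1 lies within the interval. The venous values depended on the cell filters, with Id1 between -1.03 without doublet removal and 1.07 at a limit of 10% mitochondrial UMIs. Pathway genes that were called there included Bmp6 (501 against 192 CPM, 1.38), Acvrl1 (0.84), Tcf15 (0.9999) and Hes1 (0.87), all higher. Bambi was lower on 18 and 41 UMIs, with an interval that includes 0 (-0.60, -1.48 to 0.24). Mural markers were at 154 CPM with ATRA+agonist and 643 CPM with vehicle in these cells, and their part in the values was not tested. Endothelial-like cells that matched no vessel type (697 and 637 cells) had Id1 at -0.26 (-0.45 to -0.07) and Id3 at -0.37 (-0.52 to -0.21), neither called. Their clusters differed in Id1, with -1.02 (-1.37 to -0.67) in 462 and 337 cells. Another cluster, of 93 and 191 cells, gave 0.80 (0.16 to 1.41) on 36 and 64 UMIs.

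In pericyte-like cells, the mural cells that sheathe capillaries, all 3 members with at least 50 UMIs were lower with ATRA+agonist, against 10.3% of genes. Id1 had 42 UMIs in 186 cells against 107 UMIs in 277 cells, or 50.5 (36.4 to 68.2) against 96.3 CPM (78.9 to 116), a log2 ratio of -0.93 (-1.48 to -0.40). Id3 had 169 against 288 CPM (-0.77, -1.06 to -0.48). Id4 had 14.4 (7.45 to 25.2) against 69.3 CPM (54.7 to 86.6), a log2 ratio of -2.26 (-3.28 to -1.38), the largest of the pericyte-like values. In free RNA, Id1 was at 92.6 and 151 CPM, Id3 at 158 and 324 CPM and Id4 at 5.79 and 8.54 CPM with ATRA+agonist and vehicle. The pericyte-like levels of Id1 and Id3 were near or below these values, and the part of free RNA in them was not tested. The pericyte-like levels rest on few cells. The 10 highest cells held 63.1% (ATRA+agonist) and 40.3% (vehicle) of the Id3 UMIs, and 66.2% of the Id4 UMIs of the vehicle library. The Id3 call was lost with a minimum of 500 genes (-0.46) and without the upper limit on genes (-0.35). The Id4 call was lost when the cells were clustered at the doubled resolution (-0.38). By share of cells, Id4 was seen in 5.38% (2.61 to 9.66) and 11.2% (7.73 to 15.5), intervals that overlap.

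Markers of other cells were measured in the pericyte-like cells. The 9 endothelial markers summed to 382 CPM with ATRA+agonist and 449 CPM with vehicle, against 7780 and 6705 CPM in capillary endothelial-like cells. Among the cells with no endothelial marker UMI (69 and 100), the Id1 log2 ratio was -1.04 and that of Id3 was -1.45. Fiber markers differed more, at 212 CPM with ATRA+agonist and 19.8 CPM with vehicle, and 83.9% and 93.5% of the cells held no UMI of them. In those cells (156 and 259) the ratios were -0.78 for Id1, -0.72 for Id3 and -1.81 for Id4. Immediate early genes were lower in the ATRA+agonist pericyte-like cells, the reverse of MuSC-like cells. Of 11, 7 were lower and none higher, with a median of -0.62 beside 0.02 for all genes and a sum of 13542 against 19101 CPM. Over the 3 strata of their share, Id3 gave -1.57 (-2.31 to -0.86), -0.03 (-0.47 to 0.41) and -0.89 (-1.46 to -0.35), and Id1 gave -0.51 (-1.41 to 0.36) and -1.11 (-2.13 to -0.22) in the middle and the highest stratum. The lowest stratum had 11 and 6 Id1 UMIs, too few for a ratio. The part of the digestion response was not tested here either. Smad7 was lower (-0.66, -1.28 to -0.07, on 36 and 76 UMIs) and Heyl, a Notch target typical of mural cells, was higher (0.72, 0.43 to 1.01).

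Vascular smooth muscle-like cells numbered 28 and 47, too few for a ratio, and differed in depth, with a median of 881 and 4595 UMIs. Their Id3 level was 328 CPM (157 to 603) on 10 UMIs with ATRA+agonist and 857 CPM (734 to 994) on 174 UMIs with vehicle. Their Id1 level was 98.3 (20.3 to 287) and 172 CPM (120 to 240).

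**Figure D5:**
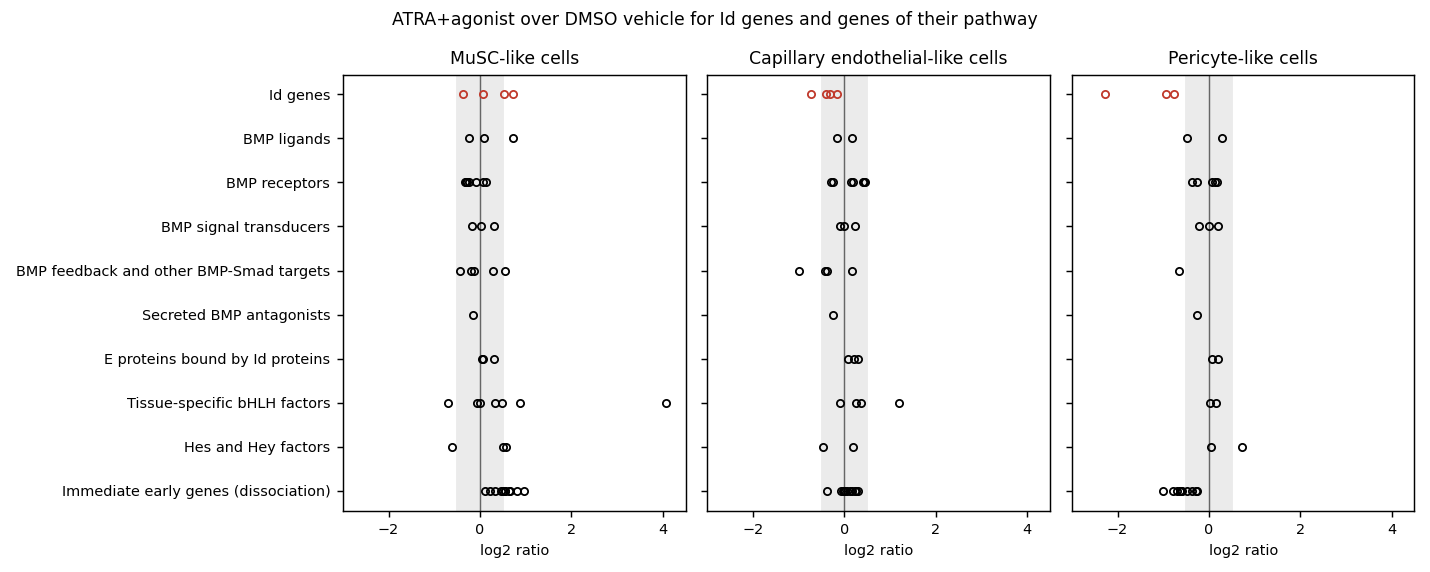
Log2 ratio of ATRA+agonist over DMSO vehicle for the Id genes (red) and for listed genes of the BMP pathway, bHLH partners and immediate early genes with at least 50 UMIs, one open circle per gene, in MuSC-like, capillary endothelial-like and pericyte-like cells. Receptors, transducers and E proteins stay within the grey band (under 0.5 in size), and most immediate early genes lie to the right in MuSC-like and to the left in pericyte-like cells.

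Among stromal cells Id2 was the member with calls, in opposite directions in different groups. In the Gdf10-led FAP-like cells Id2 was at 172 CPM with ATRA+agonist and 121 CPM with vehicle, a log2 ratio of 0.51 (0.33 to 0.68) just past the size for a call, against 6.4% of genes called higher. The call was lost in 7 of 14 other settings, with a lowest value of 0.21 after thinning to 1000 UMIs. In Pi16 FAP-like cells Id2 was lower, at 22.7 and 42.1 CPM on 62 and 93 UMIs (-0.89, -1.37 to -0.41), against 7.35% of genes called lower. In Cxcl14 FAP-like cells it was at -0.26 (-0.52 to 0.00). Id3 had lower values in all 3 groups, between -0.33 and -0.18, none of them called. In the Cxcl14 FAP-like cells the lower Id3 value came from 1 of 2 clusters (-0.34, -0.43 to -0.26, in 667 and 778 cells). The other, led by Apod, had Id3 at 800 and 762 CPM and gave 0.07 (-0.09 to 0.23). In tenocyte-like cells Id3 (-0.03, -0.16 to 0.09), Id2 (-0.02, -0.30 to 0.25) and Id1 (-0.36, -0.81 to 0.07) had intervals that include 0.

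In nerve, myelinating Schwann-like cells had Id3 at -0.13 (-0.46 to 0.20) and Id4 at -0.03 (-0.88 to 0.76). The remaining Schwann-like cells (42 and 179), which matched no subtype, had Id3 at 105 and 187 CPM (-0.83, -1.49 to -0.23), against 17.9% of genes called lower. This value rested on 25 and 198 UMIs, and the call held in 10 of 15 other settings. Monocyte or macrophage markers summed to 324 and 3835 CPM in these cells, and Id3 in free RNA was at 158 and 324 CPM. Their part in the value was not tested. In perineurial-like cells, the sheath cells of nerve bundles, Id3 (-1.25) and Id2 (-2.48, on 3 and 49 UMIs) were lower, but so were 46% of genes and the median gene was at -0.35. The median cell of that class had 1252 UMIs (ATRA+agonist) or 2294 UMIs (vehicle), and Id3 changed sign under 3 other filters.

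Among immune cells, Id2 was at -0.42 (-0.56 to -0.28) in monocyte or macrophage-like cells and at -0.38 (-0.66 to -0.09) in T cell-like cells, neither called. The macrophage value varied by cluster: cells led by Ms4a7 and C1q genes had 156 and 249 CPM (-0.67, -0.87 to -0.48), and those led by Retnla had 225 and 248 CPM (-0.14, -0.39 to 0.12). T cell-like clusters went in opposite directions. Cells led by Ccl5 and Nkg7 had Id2 at -0.63 (-1.0001 to -0.26), and cells with Gata3 and Il1rl1 among their leading genes had 475 and 214 CPM (1.15, 0.62 to 1.71). Dendritic-like cells had Id2 called higher (0.79, 0.54 to 1.05), against 12.4% of genes. Their 2 clusters differed: those led by Xcr1 and Clec9a, markers of the cross-presenting type, had 498 and 257 CPM (0.96, 0.64 to 1.28) in 50 and 28 cells, and the Ccr7-led cells, of 1285 and 1575 UMIs in the median cell, had 764 and 696 CPM (0.13, -0.31 to 0.59). The sign turned in 3 other settings, among them the mean over cells of per-cell CPM (-0.19).

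B cell-like cells were the class with the most uneven cell numbers, 643 with ATRA+agonist and 57 with vehicle. Id2 had 175 UMIs with ATRA+agonist (42.0 CPM, 36.0 to 48.8) and none with vehicle. If the vehicle cells are given 3 counts, it was 4.27-fold higher, and 25.2% of genes were called higher there. A cluster of 82 cells that was seen only with ATRA+agonist, led by Il5ra and Mzb1, gave 72 of these UMIs. The cluster found in both libraries gave 103 (31.8 CPM), with an interval of the log2 ratio that starts at 1.37. Id3, known in B cells as a brake on E proteins, was at 40.6 and 59.1 CPM, a log2 ratio of -0.54 (-1.25 to 0.25) on 169 and 18 UMIs, against 18.8% of genes called lower, and its interval includes 0.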

How the data were processed

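Single-cell suspensions of hindlimb muscle were sequenced by the authors as 10x Genomics 3′ libraries and processed with Cell Ranger 7.2.0, per the file headers, and mm10, per the labels. The deposited values are raw UMI counts per gene and barcode. The labels also name FastQC and kallisto 0.46.2. The annotation release is not given in the sources used here.

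Cells were kept with 300 to 5000 genes, under 20% mitochondrial and under 0.25% Hbb UMIs, the filters of the study. The top 7.5% of barcodes by a simulated doublet score (20% artificial doublets, in place of the study's caller) were left out. Log-normalized counts of 2000 variable genes, without the Id genes, were reduced to 30 components and clustered on 20 neighbors (Leiden, resolution 0.8, leidenalg 0.10.2, Python 3.11.15). The listed BMP, E protein, bHLH, Hes and Hey, immediate early and interferon genes were also left out, except those that are class markers. A cluster was named from at least 3 enriched markers. Endothelial cells were clustered again without genes correlated with the interferon list. Capillary clusters with only 0 or 1 markers enriched over the other endothelial cells were named by a second pass. It asked for 5 or more capillary markers at least 1.5-fold above the arterial, venous and lymphatic cells together. The pass also set limits on cell number and on leading genes of other classes. The limits of these steps were set after the clusters were seen.

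Summed UMIs gave CPM with exact Poisson intervals, shares exact Clopper-Pearson intervals, and log2 ratios exact conditional intervals. Ratios needed 20 UMIs and, in each library, 30 cells of a class or 20 cells of a cluster. Calls needed 50 UMIs. Values under other settings could rest on fewer cells. PCR and droplet loss are outside these intervals. The ratio, interval and thinning steps were tested on simulated data.

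The members, the gene lists and the alternatives were chosen with earlier results of these data known. The text names the 4 members, for each the 5 genes with the most alike pattern (at least 200 UMIs), and listed genes past the size for a call with at least 100 UMIs in MuSC-like or vessel-type cells. The immediate early strata, the cells without endothelial marker, fiber marker or Myog UMIs and listed genes that were not called were added after the values were seen.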

Additional observations from a re-analysis of the deposited data

Results flagged for a closer look

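Between cell classes the same gene had log2 ratios of ATRA+agonist over DMSO vehicle on opposite sides of 0, each with an interval that leaves out 0. With 1 library per group the difference between classes was not tested. Id1 was at 0.72 in MuSC-like and at -0.93 in pericyte-like cells, Id2 at 0.79 in dendritic-like and at -0.89 in Pi16 FAP-like cells, and Id3 at 0.53 in MuSC-like and at -1.25 in perineurial-like cells. The dendritic-like and perineurial-like values changed sign under other settings.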

How the results depend on the processing

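All values here are log2 ratios of ATRA+agonist over DMSO vehicle. For Id1 to Id3 in the 6 classes of main interest, 17 values were recomputed under 21 settings in all. Of the 285 recomputed values, 239 stayed within the counting interval of the reported value, 46 moved further, and 34 changed sign, none of them a called value. Of 452 others, 382 stayed so, 62 moved, and in 8 a called value changed sign, among 50 sign changes in all. Id3 stayed called lower in capillary endothelial-like cells under 17 of 17 settings, and Id1 stayed called higher in MuSC-like cells under 19 of 20 and Id3 under 16 of 20.

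Called values changed sign for Id2 in dendritic-like cells (doublet rate of 15% -0.99, mean over cells of per-cell CPM -0.19, thinned to 2000 UMIs -0.17), for Id3 in B cell-like cells (own markers 0.0057, thinned to 1000 UMIs 0.21) and for Id3 in perineurial-like cells (minimum of 500 genes 0.20, no hemoglobin filter 0.46, no upper limit on genes 0.028). With at most 10% mitochondrial UMIs, Id1 was at -0.16 in arterial and 1.07 in venous endothelial-like cells, and Id3 at -0.41 in Cxcl14 FAP-like and 0.55 in venous endothelial-like cells. With a minimum of 500 genes, arterial Id1 was -0.16, arterial Id3 -0.51, pericyte-like Id3 -0.46 and venous Id3 0.20. Without the hemoglobin filter, Id1 was -0.14 in arterial, -0.46 in capillary and -0.99 in venous cells, and Id3 was -0.44 in arterial and -0.65 in venous cells. Without the upper limit on genes, arterial Id1 was -0.17, venous Id1 -0.69, MuSC-like Id3 0.63 and pericyte-like Id3 -0.35. With a doublet rate of 15%, capillary Id1, Id2 and Id3 were -0.53, -0.52 and -0.83, and venous Id1 was -0.81. Without doublet removal, venous Id1 was -1.03, arterial Id3 -0.50 and venous Id3 -0.47. When each cell was classed from its own markers, venous Id1 was -0.58, venous Id3 -0.64 and Cxcl14 FAP-like Id2 0.035. Median-of-ratios scaling gave -0.49 for Id1 and -0.82 for Id3 in capillary cells, and leaving out interferon-led cells gave -0.73 and -0.85. Thinning to 1000 UMIs gave Id1 values of 0.26 (arterial), -0.31 (Cxcl14 FAP-like) and 1.04 (MuSC-like), Id2 values of -0.78 (arterial) and -0.57 (Cxcl14 FAP-like), and 0.61 for Id3 in MuSC-like cells. Thinning to 2000 UMIs gave -1.23 for pericyte-like Id3. In Cxcl14 FAP-like cells, Id2 was 0.13 with the resolution halved, and Id3 was -0.41 with it doubled, -0.40 with the Id, list and interferon genes kept for clustering and -0.055 with equal weights of clusters. Settings chosen after seeing the data were the mean over 3 strata of immediate early genes (Id1 0.33 and Id3 0.24 in MuSC-like, Id1 -0.40 in pericyte-like cells, with a lowest stratum of 11 and 6 UMIs), the cells without a Myog UMI, and pericyte-like and MuSC-like cells without endothelial marker UMIs (-1.45 for pericyte-like Id3) or without fiber marker UMIs. The cause of these changes was not tested.

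No pericyte-like class formed at a doublet rate of 15%, at 10% mitochondrial UMIs or with the resolution halved, so these gave no value. No paired analysis was possible because each group is 1 library. Leaving out a replicate was not possible for the same reason. Depth limits Id4, at 444 and 671 UMIs over all kept cells, and the venous and mural classes, where few cells carry the values.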
